A study of Rattus norvegicus with 23 samples.

Results

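The activity-induced genes studied here are 10 genes that neurons switch on within minutes to hours of firing: *Nr4a1*, *Nr4a2*, *Nr4a3*, *Fos*, *Junb*, *Egr1*, *Egr2*, *Egr3*, *Arc* and *Bdnf*. Members were chosen as the probe sets of the Rat Gene 1.0 ST array whose only listed gene symbol is 1 of these 10 names. Each of the 10 genes had 1 such probe set, and all 10 passed the signal minimum (at least 40 on at least 4 arrays), among 13339 tested probe sets and 29211 on the array. The 23 arrays hold dorsal hippocampal RNA of 1 male F344 rat each, from 6 ST, 6 LT, 5 AC and 6 YC rats. ST rats were 21 months old and had received AAV-FKBP1b into CA1 at 19 months by the design text (18 months by the labels). LT rats, also 21 months old, had received AAV-FKBP1b at 13 months by the design text (12 months by the labels). AC rats, 21 months old, had received AAV-eGFP at 13 months by the design text, whereas their labels give 18 months. YC rats were 5 to 6 months old and are called sham in the labels, whereas the methods give them no injection. Both transgenes were driven by a CaMKII promoter, which restricts expression largely to excitatory neurons. All rats had been trained in the water maze, and brains were taken days after the last task, so the signals are not those of the minutes after an experience. AAV-eGFP was also the more concentrated of the vectors, so in comparisons of ST or LT with AC the transgene cannot be told apart from the titer. Age at injection and time since injection differed between ST and AC by the design text, and between LT and AC by the labels. In these comparisons they cannot be told apart from the transgene either. Between LT and ST they differed together by both sources and cannot be told apart from each other. Age, surgery and vector cannot be told apart between AC and YC. ST and LT rats were picked for arrays because their FKBP1b expression lay above their group medians.

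When a neuron fires, calcium enters through NMDA receptors and voltage-gated channels, and kinases carry the signal to factors already bound at promoters, chiefly CREB at cyclic AMP response elements and serum response factor at CArG boxes. The first genes made in response fall into 2 kinds. Inducible transcription factors (the Nr4a orphan nuclear receptors, the AP-1 subunits Fos and JunB, and the Egr zinc fingers) act on later genes, while effectors such as Arc and BDNF act at the synapse. In the hippocampus *Egr1* and *Arc* are widely used as markers of recently active CA1 and dentate neurons, and FKBP1b, the protein delivered here, limits calcium release from ryanodine receptors.

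Promoters of 6 of the 10 members were matched in RefSeq (build GRCr8), 11 promoters in all because *Bdnf* has 6 starts; *Nr4a3*, *Fos*, *Egr3* and *Arc* had no entry. The 250 bases before the start are printed for *Nr4a2*, the only member called between groups, for *Nr4a1*, *Junb* and *Egr1*, which varied together across arrays, and for *Egr2*, the other member with a CArG box. Capitals mark matches, on either strand, to TGACG (the core of the cyclic AMP response element), the CArG box or TATAAA.

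Nr4a2, chr3:62104888-62105137, minus strand: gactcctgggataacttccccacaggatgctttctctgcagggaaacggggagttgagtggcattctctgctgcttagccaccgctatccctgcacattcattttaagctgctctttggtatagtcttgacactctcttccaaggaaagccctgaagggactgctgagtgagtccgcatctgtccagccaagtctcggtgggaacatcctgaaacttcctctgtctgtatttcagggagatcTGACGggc
Nr4a1, chr7:134259888-134260137, plus strand: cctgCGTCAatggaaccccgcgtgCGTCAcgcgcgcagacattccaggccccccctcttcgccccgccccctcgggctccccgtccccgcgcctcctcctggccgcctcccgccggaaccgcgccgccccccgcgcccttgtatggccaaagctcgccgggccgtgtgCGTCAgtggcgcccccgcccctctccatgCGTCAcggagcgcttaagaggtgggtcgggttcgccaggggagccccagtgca
Junb, chr19:40080876-40081125, plus strand: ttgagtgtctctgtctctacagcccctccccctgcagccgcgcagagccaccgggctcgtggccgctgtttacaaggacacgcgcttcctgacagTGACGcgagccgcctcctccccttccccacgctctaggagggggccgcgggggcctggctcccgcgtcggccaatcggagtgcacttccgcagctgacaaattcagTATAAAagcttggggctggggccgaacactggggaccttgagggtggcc
Egr1, chr18:26736828-26737077, plus strand: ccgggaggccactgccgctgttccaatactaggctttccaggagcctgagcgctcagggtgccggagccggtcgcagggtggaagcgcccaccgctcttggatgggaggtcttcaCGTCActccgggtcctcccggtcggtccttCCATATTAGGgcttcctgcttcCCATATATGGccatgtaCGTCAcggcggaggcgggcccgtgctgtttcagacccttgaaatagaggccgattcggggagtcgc
Egr2, chr20:21054442-21054691, minus strand: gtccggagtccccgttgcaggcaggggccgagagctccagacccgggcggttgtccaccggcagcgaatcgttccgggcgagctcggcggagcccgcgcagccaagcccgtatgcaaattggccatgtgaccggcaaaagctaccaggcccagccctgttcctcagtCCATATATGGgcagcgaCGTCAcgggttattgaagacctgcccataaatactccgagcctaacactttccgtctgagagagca

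Searches covered 250 bases before to 50 after each start, on both strands. The core TGACG was present 4 times in *Nr4a1*, at -246, -226, -82 and -53 (first base, counted back from the start), 2 times in *Egr1*, and once each in *Nr4a2*, *Junb*, *Egr2* and 1 of the 6 *Bdnf* promoters. It occurs in 21.2% of all 33469 rat promoters in the table. A CArG box was present at -105 and -83 in *Egr1* and at -83 in *Egr2*, and in 1.64% of all promoters. The whole element TGACGTCA (1.83% of all promoters, and containing the core), the Nr4a monomer site AAAGGTCA (1.43%) and the Egr site GCGTGGGCG (0.544%) were matched in none of the 11. TATAAA, present in 14.2% of all promoters, was matched in *Junb* at -49 and in 1 *Bdnf* promoter. A match describes the letters only, and binding was not measured.

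Before the groups are compared, AC replicate 5 has to be described, because it stood apart in most members. It had the lowest signal of all 23 arrays for 8 of the 10 members, the exceptions being *Nr4a3* (sixth lowest) and *Egr2* (second lowest); over all tested probe sets it was lowest for 16.3% and highest for 15.1%. Its signal was 37.5% of the mean of the other 4 AC arrays for *Nr4a1*, 38.3% for *Egr1* and 44.8% for *Arc*, and between 72.7% and 93.7% for the other 7. The mean of the 10 members, each centred over arrays, was -0.67 on a log2 scale on AC replicate 5, against -0.17 to 0.13 on the other AC arrays. On the same array, 3 of 3 dentate granule cell markers were below the mean of the other AC arrays, with a list mean of -0.77 against 0.0040 to 0.15. *Prox1*, which defines granule cells, read 333 there and 632 to 950 on the other 22 arrays. Of the 4 CA1 markers 3 were below the mean of the other AC arrays. *Wfs1* read 580 against 2444 to 2996 on the other 22 arrays, and *Pou3f1* 173 against 241 to 306. *Mpped1*, at 807, was near the other AC arrays' mean of 825, while *Fibcd1* was above their mean at 905. Of the 5 CA3 and CA2 markers 2 were below the mean of the other AC arrays (list mean 0.094 against -0.086 to 0.10). Of the 3 neocortical and subicular markers measured 2 were below it (list mean -0.83 against -0.29 to 0.043). The list of general neuronal markers was highest on AC replicate 5 (0.11 against -0.067 to 0.036 on the other AC arrays). Of its 9 genes 1 was below the mean of the other AC arrays, *Rbfox3*, at 1571 against 1885 to 2325 on the other 22 arrays. Of the 4 excitatory neuron markers 3 were below the mean of the other AC arrays (list mean -0.11 against -0.11 to 0.16). All 5 oligodendrocyte markers were below the mean of the other AC arrays (list mean -0.43), and all 8 microglial markers were above it (0.84). The faintest marker of these lists, *Trem2*, averaged 184 over the 23 arrays. The RNA integrity number of AC replicate 5 was 8.9, as on LT replicate 3, whose member mean was -0.022. The part of tissue composition and RNA quality in the low signals of AC replicate 5 was not tested, and differences that it moved by over 1.5 times are also given without it. In whole tissue, fewer cells of a type and less RNA per cell cannot be told apart.

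**Figure D1:**
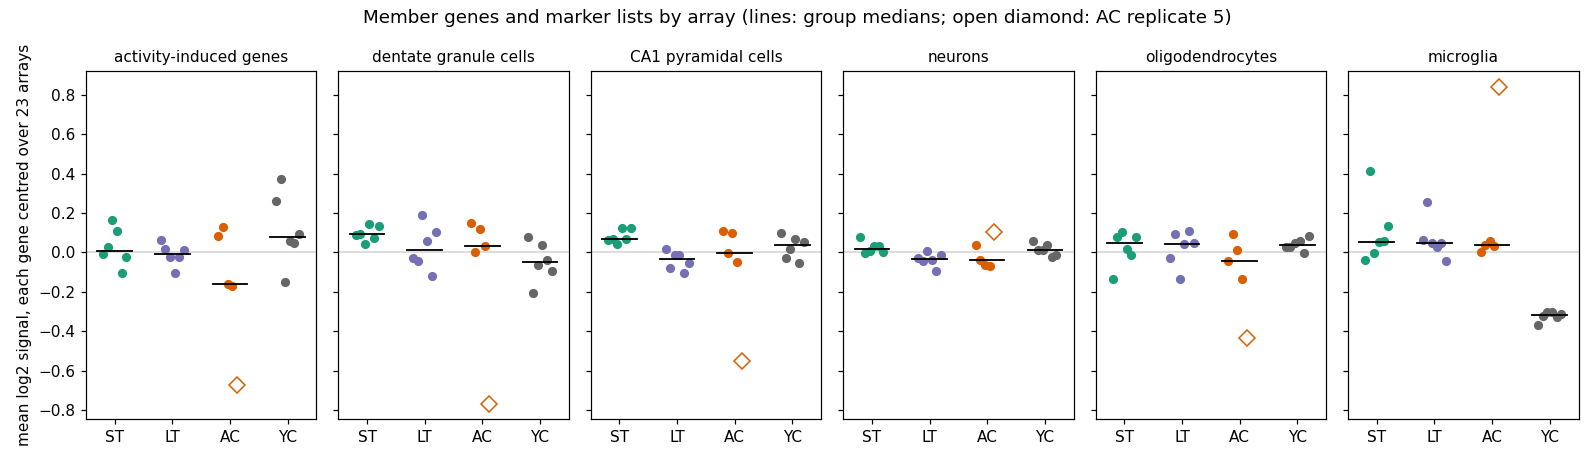
Mean log2 signal of the 10 activity-induced genes and of 5 marker lists (vertical axis, each gene centred over 23 arrays) on each ST, LT, AC and YC array; points are arrays and lines are group medians. AC replicate 5, the open diamond, lies lowest for the members at -0.67, for dentate granule cells at -0.77, for CA1 and for oligodendrocyte markers, and highest for microglial markers at 0.84.

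Of the 10 activity-induced genes, 1 was called between AC and YC, *Nr4a2*, which fell with an adjusted p of 0.0033 (limma, adjusted over all 13339 probe sets). The share called among all tested probe sets was 9.75%, so a single call among 10 is near the background. The fold changes of all 10 members were below zero, with a median of -0.30 on the log2 scale, against a median of -0.0062 and 52.5% below zero among all tested probe sets. Without AC replicate 5 the members' median was -0.10, 9 of 10 were below zero, and *Nr4a2* was again the only call, at a background of 11.9%. At an unadjusted p under 0.05 there were 4 of 10 members (*Nr4a2*, *Egr2*, *Fos* and *Egr1*), against 27.4% of all tested probe sets. Without AC replicate 5 there was 1 of 10 at that threshold, and the share of all probe sets was not counted. In neither treatment group was any member called against AC by limma, at a background of 0% for ST vs AC and 0.075% for LT vs AC. At an unadjusted p under 0.05 there were 2 of 10 members in each, against 9.82% of all probe sets for ST vs AC and 12.6% for LT vs AC. Without AC replicate 5 there were 2 for ST vs AC and 0 for LT vs AC. The methods' own threshold, an analysis of variance and then Fisher's least significant difference with neither p adjusted, called *Nr4a2* alone in AC vs YC (18.3% of all probe sets called) and in ST vs AC (6.09%). By that threshold 0 of 10 members were called in LT vs AC (9.11%).

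**Figure D2:**
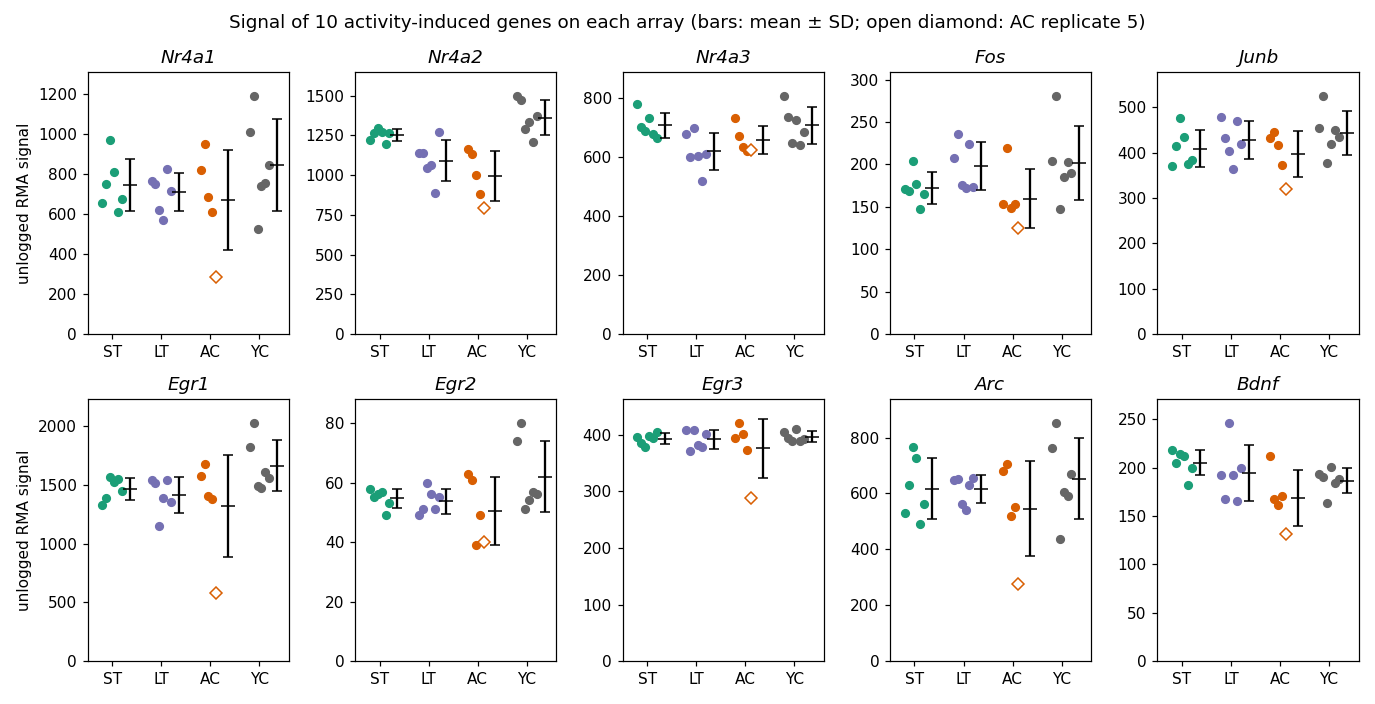
Unlogged RMA signal (vertical axes from 0) of each of the 10 genes on every array of the ST, LT, AC and YC groups; each point is an array, with the mean ± SD as bars. For *Nr4a2* the AC arrays (794 to 1161) lie below every ST array (1194 to 1299) and every YC array (1209 to 1499). How many of all tested probe sets separate these groups in this way was not counted. The open diamond, AC replicate 5, is the lowest array in 8 of the 10 panels.

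*Nr4a2* (Nurr1), an orphan nuclear receptor best known for maintaining dopamine neurons and induced in hippocampal neurons by learning, had signals of 1161, 1134, 998, 879 and 794 on the AC arrays. The YC arrays ran from 1209 to 1499 with a median of 1352, so the groups did not overlap. How many of all tested probe sets separate AC from YC or from ST in this way was not counted. *Nr4a2* averaged 993 ± 159 in AC (SD, n = 5) and 1362 ± 110 in YC (SD, n = 6). On the log2 scale this is -0.47, with a standard error of 0.088 and a 95% interval of -0.65 to -0.28, and the signal fell by 27.6%. Of the 15 marker lists, 3 also separated the AC and YC arrays without overlap, none with a marker at 0. Microglial markers (8 of 8 measured) had list means of 0.0012 to 0.84 in AC and -0.37 to -0.30 in YC, and endothelial and pericyte markers (8 of 8) -6.4e-04 to 0.33 in AC and -0.15 to -0.059 in YC. Neocortical and subicular markers (3 of 9 measured) had -0.83 to 0.043 in AC and 0.12 to 0.21 in YC. Their part in the difference of *Nr4a2* was not tested. Without AC replicate 5 it was -0.39 (adjusted p = 0.0065), and under the 39 alternatives it ran from -0.53 to -0.37 with an adjusted p of 0.0011 to 0.036. In ST rats *Nr4a2* lay between 1194 and 1299 with a median of 1266, above every AC array, and its SD of 38.1 was the smallest of the 4 groups. ST exceeded AC by 0.35 (standard error 0.088, interval 0.17 to 0.53), which was not called (unadjusted p = 6.8e-04, adjusted p = 0.23). The adjusted p of this difference ran from 0.042 to 0.72 over the alternatives and was under 0.05 only without AC replicate 1, where the difference was 0.41. In LT rats *Nr4a2* lay between 888 and 1271 with a median of 1101, overlapping both AC and YC. LT differed from AC by 0.14 (interval -0.042 to 0.33, adjusted p = 0.51), or 0.065 without AC replicate 5, from ST by -0.21 (interval -0.38 to -0.033, adjusted p = 0.33) and from YC by -0.32 (interval -0.50 to -0.15, adjusted p = 0.066). ST differed from YC by -0.12 (interval -0.29 to 0.058, adjusted p = 0.45). The F test across the 4 groups gave an adjusted p of 0.011 for *Nr4a2* and 0.13 to 0.67 for the other 9 members, at a background of 5.46%. The ST and AC comparisons share the AC arrays, so a low AC group enters both.

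Neither of the other nuclear receptors was called by limma in any comparison. *Nr4a1* (Nur77), like its relatives an orphan receptor, read 820, 949, 685, 611 and 287 on the AC arrays and 527 to 1192 (median 802) on the YC arrays. The ranges overlapped even without AC replicate 5, at 287. AC differed from YC by -0.40 (interval -0.87 to 0.082, adjusted p = 0.28), and by -0.12 without AC replicate 5. ST rats read 609 to 970 (median 714) and LT rats 571 to 826 (median 734), differing from AC by 0.24 and 0.18. The signs turned without AC replicate 5, to -0.037 for ST and -0.10 for LT. *Nr4a3* (Nor-1) varied less, with 734, 673, 635, 621 and 624 on the AC arrays and 643 to 809 (median 707) on the YC arrays, a difference of -0.11 (adjusted p = 0.34). It was 664 to 782 (median 697) in ST and 521 to 701 (median 609) in LT, where 4 of 6 arrays lay below every ST array. LT differed from ST by -0.20 (standard error 0.067, interval -0.33 to -0.059), with an unadjusted p of 0.0073 and an adjusted p of 0.25, at a background of 0.0075% called. Its difference from YC in LT was -0.19 (adjusted p = 0.18), and *Nr4a3* was the only member below AC in LT, by -0.088 (adjusted p = 0.61).

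The AP-1 subunits showed wide and overlapping ranges. *Fos*, whose product pairs with Jun proteins, read 153, 219, 149, 153 and 125 on the AC arrays and 148 to 281 (median 197) on the YC arrays. AC replicate 2, at 219, lay above 5 of 6 YC arrays, AC replicate 5 below all 6, and the other 3 AC arrays below all but YC replicate 3. AC differed from YC by -0.34 (standard error 0.14, interval -0.62 to -0.049, adjusted p = 0.12), and by -0.46 without AC replicate 2, where it was called (adjusted p = 0.034). LT rats read 172 to 236 (median 192), above every AC array but replicate 2, a difference of 0.32 (interval 0.038 to 0.61, adjusted p = 0.33) that was 0.24 without AC replicate 5. ST rats read 147 to 204 (median 170) and differed from AC by 0.13 (adjusted p = 0.82), or 0.044 without AC replicate 5. *Junb*, the AP-1 subunit that restrains c-Jun, read 432, 447, 417, 373 and 321 on the AC arrays and 377 to 526 (median 442) on the YC arrays. AC differed from YC by -0.16 (adjusted p = 0.27), ST from AC by 0.044 and LT from AC by 0.11. These were -0.084, -0.031 and 0.035 without AC replicate 5.

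Among the Egr zinc-finger factors the effect of AC replicate 5 was largest for *Egr1* (Zif268), which read 1574, 1672, 1401, 1382 and 577 on the AC arrays. On the YC arrays *Egr1* read 1467 to 2023 with a median of 1582, so 2 AC arrays lay within the YC range and 3 below it. AC differed from YC by -0.41 (standard error 0.18, interval -0.78 to -0.036, adjusted p = 0.14), and by -0.13 without AC replicate 5. ST rats read 1327 to 1566 (median 1482) and LT rats 1153 to 1538 (median 1450). Their differences from AC were 0.24 and 0.18, and without AC replicate 5 they were -0.039 and -0.096. *Egr2* (Krox-20) was the faintest member, with 63, 61, 39, 49 and 40 on the AC arrays and 51 to 80 (median 56.5) on the YC arrays, near the signal minimum of 40. YC replicates 1 and 2, at 74 and 80, lay above all other 21 arrays. AC differed from YC by -0.31 (interval -0.56 to -0.053, adjusted p = 0.11), and by -0.39 without AC replicate 1, where it was called (adjusted p = 0.035). ST rats read 49 to 58 and LT rats 49 to 60 for *Egr2*, differing from AC by 0.14 and 0.12, neither called. These were 0.068 and 0.040 without AC replicate 5. *Egr3* varied little outside AC, at 378 to 405 in ST, 372 to 409 in LT and 389 to 411 in YC. On the AC arrays *Egr3* read 395, 421, 402, 373 and 289, a difference from YC of -0.090 (adjusted p = 0.37) that was 0.0017 without AC replicate 5.

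The effector *Arc*, whose protein drives internalization of AMPA receptors and whose mRNA travels to active synapses, read 680, 704, 519, 553 and 275 on the AC arrays. The YC arrays ran from 437 to 852 (median 638) and contained the other 4 AC arrays. AC differed from YC by -0.30 (interval -0.70 to 0.097, adjusted p = 0.32), and by -0.070 without AC replicate 5. *Arc* ran from 491 to 765 in ST and from 542 to 655 in LT. Its differences from AC of 0.23 (ST) and 0.24 (LT) became 0.0015 and 0.010 without AC replicate 5. *Bdnf*, the neurotrophin that acts through TrkB, read 212, 168, 161, 171 and 131 on the AC arrays and 163 to 201 (median 189) on the YC arrays, a difference of -0.16 (adjusted p = 0.30), or -0.073 without AC replicate 5. In ST rats *Bdnf* read 182 to 218 (median 209), above every AC array but replicate 1, and 0.30 above AC (standard error 0.098, interval 0.094 to 0.50, unadjusted p = 0.0062, adjusted p = 0.36). The ST difference was 0.21 without AC replicate 5. LT rats read 166 to 246 (median 192) and differed from AC by 0.21 (interval 0.0030 to 0.41, adjusted p = 0.39), or 0.12 without AC replicate 5.

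Set together, the members' median fold change was 0.19 for ST vs AC, 0.16 for LT vs AC and 0.21 for both treatments averaged vs AC, against -0.0031 to 0.0100 among all tested probe sets. For that average, 0 of 10 members were called by limma (background 0.03%), with 2 at an unadjusted p under 0.05 (10.5% of all probe sets). Without AC replicate 5 these 3 medians were 0.023, 0.022 and 0.0037, and 4 of 10 members lay below zero in each comparison. For the average of both treatments, 1 member then had an unadjusted p under 0.05. Against YC, 0 of 10 members were called in ST (background 4.15%) and 0 of 10 in LT (background 1.03%). At an unadjusted p under 0.05 there were 0 in ST vs YC and 2 in LT vs YC, against 21.7% and 13.4% of all probe sets. Between LT and ST, 0 of 10 were called by limma, with 2 at an unadjusted p under 0.05 (12.4% of all). By the methods' unadjusted threshold *Nr4a2* and *Nr4a3* were called in LT vs ST (8.19% of all) and in LT vs YC (9.77%), and no member in ST vs YC (14.9%). All of these comparisons with AC share the same 5 arrays.

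**Figure D3:**
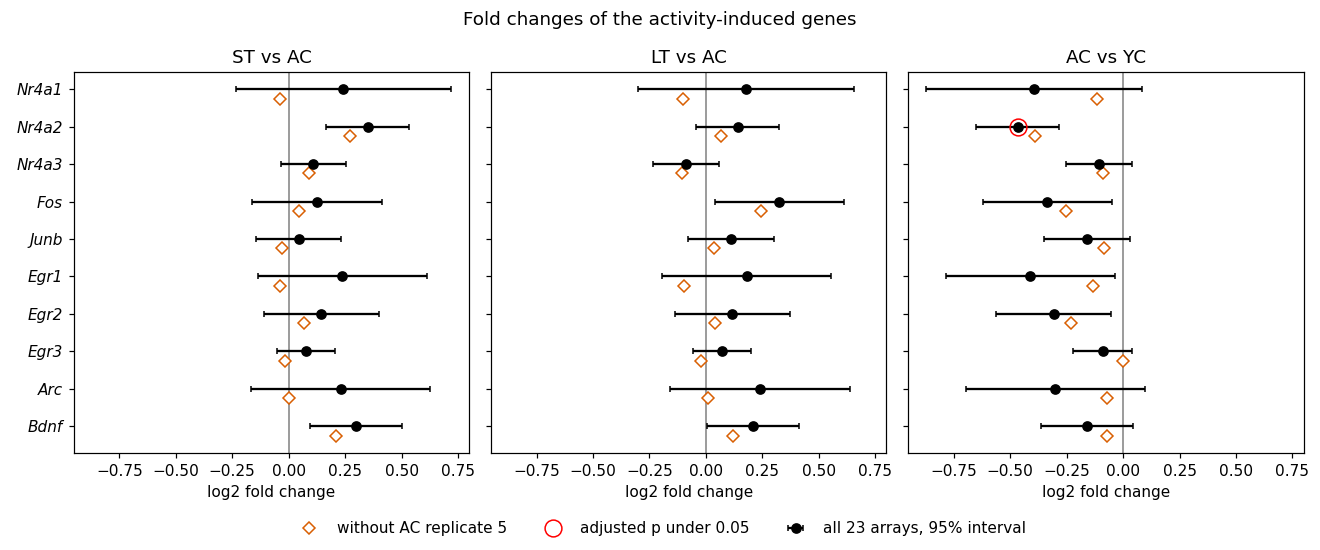
Log2 fold change (horizontal axis) of each gene for ST vs AC, LT vs AC and AC vs YC. Filled points are limma estimates from 23 arrays with 95% intervals, open diamonds leave out AC replicate 5, and the red ring marks an adjusted p under 0.05, which *Nr4a2* alone has, in AC vs YC; for *Egr1* and *Nr4a1* the diamonds lie on the other side of zero in both treatment comparisons.

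With group means removed, many of the members varied together from rat to rat. Log2 signals were centred on their group mean and correlated over the 23 arrays for all 45 pairs, with permutations within groups and p values adjusted over the 45. Pearson's r ran from 0.12 to 0.98 with a median of 0.60, and 23 pairs had an adjusted p under 0.05 (20 by Spearman's rho). The share among pairs of all tested probe sets was not computed, so these counts have no background beside them. Some of the called pairs turned sign within a group. Within LT, r was -0.80 for *Fos* with *Egr2*, -0.79 for *Nr4a1* with *Egr2*, -0.72 for *Egr2* with *Arc* and -0.52 for *Arc* with *Bdnf*. Within ST, r was -0.41 for *Nr4a2* with *Egr3*. The closest pair was *Nr4a1* with *Arc* (r = 0.98, rho = 0.91, adjusted p = 1.5e-04 for each by permutation), whose unadjusted p was the smallest the permutations can give. Its r was 0.94 without the 2 arrays farthest from the median of *Nr4a1* (AC replicate 5 and YC replicate 3) and 0.95 without AC replicate 5 alone. Within groups r was 0.97 in ST, 0.88 in LT, 0.99 in AC and 1.00 in YC. *Nr4a1* with *Junb* gave r = 0.91 and rho = 0.94 (adjusted p = 1.5e-04 for each by permutation), and 0.90 without the same 2 arrays. *Fos* with *Junb* gave r = 0.83 and rho = 0.81 (adjusted p of 4.5e-04 and 1.5e-04 by permutation), and 0.80 without the 2 farthest arrays. The 10 pairs among *Nr4a1*, *Fos*, *Junb*, *Egr1* and *Arc*, grouped here after their values were seen, ran from 0.62 to 0.98, from 0.67 to 0.95 without AC replicate 5 and from 0.53 to 0.94 without the 2 farthest arrays. Within groups their lowest r was 0.17 in ST, 0.59 in LT, 0.73 in AC and 0.82 in YC. YC replicate 2 had the highest signal of all 23 arrays for *Nr4a1*, *Fos*, *Junb*, *Egr1*, *Egr2* and *Arc*, and YC replicate 3 the lowest YC signal for *Nr4a1*, *Fos*, *Junb* and *Arc*.

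**Figure D4:**
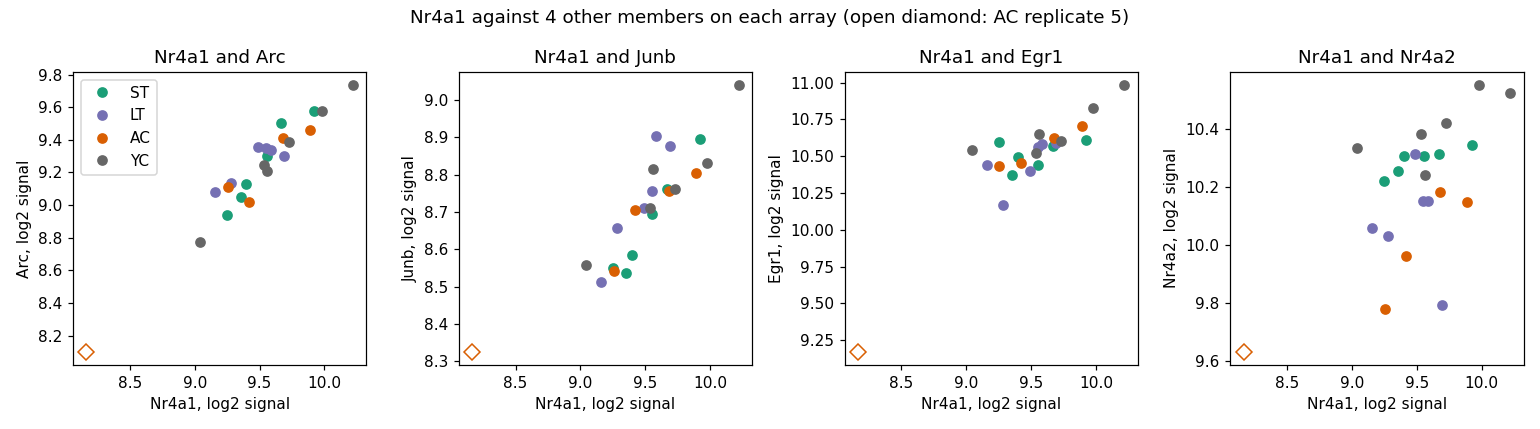
Log2 signal of *Nr4a1* (horizontal axes) against *Arc*, *Junb*, *Egr1* and *Nr4a2* (vertical axes), with 1 point for each array, coloured by group, and the open diamond for AC replicate 5. *Arc* and *Junb* follow *Nr4a1* in all 4 groups, with r of 0.98 and 0.91 over group-centred signals. For *Nr4a2* r was 0.65 (0.47 without AC replicate 5), with 0.88 within ST, -0.16 within LT, 0.91 within AC and 0.75 within YC. Its AC arrays also lie below all ST and YC arrays, and the share of probe sets that do so was not counted.

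*Nr4a3* with *Bdnf* gave r = 0.70 and rho = 0.74 (adjusted p of 0.0025 and 7.5e-04 by permutation), 0.71 without the 2 farthest arrays and 0.74 without AC replicate 5. *Nr4a3* with *Nr4a2* gave r = 0.60 and rho = 0.60 (adjusted p of 0.019 and 0.018 by permutation), and 0.47 without the 2 farthest arrays. *Bdnf* and *Fos*, by contrast, gave r = 0.12 (rho = 0.11, adjusted p of 0.64 and 0.68 by permutation). Some relations rested on AC replicate 5. *Egr1* with *Egr3* gave r = 0.78, but rho was 0.29 (adjusted p of 0.15 and 0.29 by permutation), and r was 0.083 without the 2 farthest arrays and -0.056 without AC replicate 5. Over all 45 pairs the median r was 0.44 without AC replicate 5. Of the 23 pairs called, *Arc* with *Bdnf* had the lowest r without that array (0.30, against 0.54 with it).

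**Figure D5:**
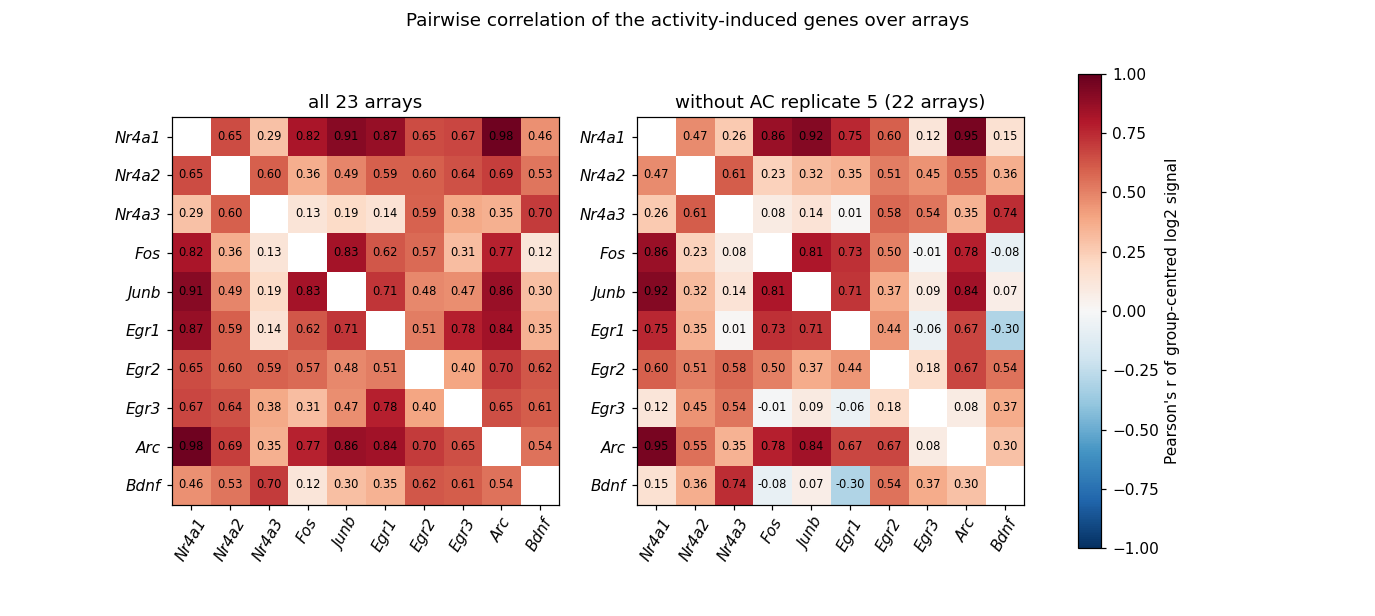
Pearson's r of group-centred log2 signal for each pair of genes, over all 23 arrays (left) and without AC replicate 5 (right), with colour from -1 to 1. The block of *Nr4a1*, *Fos*, *Junb*, *Egr1* and *Arc* stays between 0.67 and 0.95 on the right, while most values for *Egr3* drop, for *Egr1* with *Egr3* to -0.056 against 0.78 on the left.

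Genes outside the list whose group-centred signal was most like the mean of the 10 members were *Dusp6* (r = 0.86 over 23 arrays), *Cyrib* (0.85), *Eml1* (0.83), *Map6d1* (0.82) and *Arih1* (0.81). *Dusp6* encodes a phosphatase that inactivates ERK and is itself induced by ERK signaling. Without AC replicate 5 these r were 0.77 for *Dusp6*, 0.67 for *Cyrib*, 0.62 for *Eml1*, 0.57 for *Map6d1* and 0.62 for *Arih1*. *Dusp5*, the nuclear ERK phosphatase, came first in that ranking (0.88). These r are descriptions, found among all tested probe sets.

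The wider pathway was set beside the members in 4 lists. Of 47 other activity-induced genes tested, 3 were called between AC and YC (6.38%, against 9.75% of all probe sets). The list median was -0.046, against -0.0062 among all tested probe sets, and it was -0.025 without AC replicate 5. *Homer1*, whose short form is an immediate early gene at the synapse, averaged 786 ± 35.0 in AC (n = 5) and 879 ± 37.6 in YC (SD, n = 6) and fell by 0.16 (adjusted p = 0.011). Which form of *Homer1* its probe set reports was not checked. *Ier5* fell by 0.16 (adjusted p = 0.044), and the difference was -0.10 without AC replicate 5. *Ier2* rose by 0.11 (adjusted p = 0.0445), and both are immediate early genes. The list of 18 activity-responsive factors and coactivators had a median of 0.0069 in AC vs YC, and 0.062 without AC replicate 5. Of these 18, 3 were called (16.7%), all higher in AC. They were *Atf1*, a CREB relative (0.23, adjusted p = 0.022), *Rest*, a repressor of neuronal genes (0.27, adjusted p = 0.022), and *Crtc2*, a CREB coactivator (0.17, adjusted p = 0.039). The list of 23 kinases, phosphatases and channels that signal to the nucleus had a median of -0.083, and -0.0073 without AC replicate 5. Of these 23, 2 were called (8.70%), both lower in AC. *Ppp3cb*, a catalytic subunit of calcineurin, averaged 2942 ± 178 in AC (n = 5) and 3295 ± 88.5 in YC (SD, n = 6) and fell by 0.16 (adjusted p = 0.0099). *Prkacb*, a catalytic subunit of protein kinase A, fell by 0.16 (adjusted p = 0.028). Leaving out single arrays moved the count of the first list between 1 and 4, with 1 without YC replicate 3, 4 or 6 or ST replicate 6. The second list moved between 0 and 3, with 0 without AC replicate 3. The third moved between 1 and 5, with 1 when YC replicate 2 or 3, or else AC replicate 3 or 4, was dropped, and 5 when AC replicate 1 was.

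The list of 15 partners, corepressors and receptors of the members had a median of 0.0097 in AC vs YC, and -0.0092 without AC replicate 5. Of these 15, 4 were called between AC and YC (26.7%, against 9.75% of all probe sets). Leaving out single arrays moved this count between 1 and 4, with 1 without YC replicate 2 or without AC replicate 2, 3 or 4. *Furin*, a protease that cleaves proBDNF, averaged 266 ± 26.6 in AC (n = 5) and 228 ± 5.27 in YC (SD, n = 6) and rose by 0.22 (adjusted p = 0.014). *Rxra*, the retinoid X receptor with which Nr4a1 and Nr4a2 pair, rose by 0.18 (adjusted p = 0.040). *Dnm2*, a dynamin that binds Arc, rose by 0.11 (adjusted p = 0.043), and *Batf3*, an AP-1 family factor, fell by 0.17 (adjusted p = 0.044). In none of the 4 lists was a gene called by limma for ST vs AC, LT vs AC or their mean with all 23 arrays. At an unadjusted p under 0.05 in ST vs AC, LT vs AC and their mean there were 5, 4 and 4 of these 15 partners, corepressors and receptors. The counts were 4, 3 and 4 of the 47 other activity-induced genes and 0, 1 and 2 of the 18 factors and coactivators. For the 23 kinases, phosphatases and channels they were 2, 2 and 3. Of all probe sets, 9.82%, 12.6% and 10.5% were under 0.05 in these comparisons. Without AC replicate 1, *Furin* was called lower in ST (-0.23, adjusted p = 0.042), in LT (-0.22, adjusted p = 0.039) and in their mean (-0.23, adjusted p = 0.024) vs AC. Without the same array *Rxra* was called lower in ST and in the mean (-0.19 and -0.18), and *Ppp3cb* higher in LT (0.16). *Furin* was at -0.18 for ST and LT averaged vs AC (adjusted p = 0.14). When single arrays were left out in turn, *Homer1*, *Ppp3cb* and *Furin* were called in AC vs YC in all 23 cases. *Rest* was not called without AC replicate 3 or 4, nor *Atf1* without AC replicate 2, 3 or 4. *Prkacb* lost its call without YC replicate 2 or 3, and without AC replicate 3 or 4. *Crtc2* lost it without YC replicate 1, 3, 4 or 5, and without AC replicate 1, 2, 3 or 5, as did *Dnm2* without YC replicate 1, 2, 5 or 6, AC replicate 2, 3 or 4, or ST replicate 2. *Rxra* lost it without YC replicate 1, 2, 3, 4 or 6, and without AC replicate 2, 3, 4 or 5, as did *Ier5* without YC replicate 1, 2, 3, 4 or 6, AC replicate 2, 4 or 5, ST replicate 6 or LT replicate 1. *Batf3* was called in 11 of the 23 cases, losing it without YC replicates 2 to 5, AC replicates 1 to 4, ST replicates 2 and 6 or LT replicates 1 and 6. *Ier2* was called in 9, losing it without YC replicates 3 to 6, AC replicates 1 to 4, ST replicates 2, 3, 5 and 6 or LT replicates 4 and 5. AC replicates 3 and 4 and LT replicates 2 and 5 are high in choroid plexus markers, whose list mean reached -0.66 in ST, 2.71 in LT, 3.13 in AC and -0.37 in YC. Without these 4 arrays none of the 12 list genes named above was called (adjusted p of 0.057 to 0.27), while *Nr4a2* was (-0.42, adjusted p = 0.025). With the 19 arrays left, 2.98% of all probe sets were called, against 9.75% with all 23. All 12 kept their sign, for example *Ppp3cb* at -0.16, *Crtc2* at 0.19, *Ier5* at -0.20 and *Furin* at 0.20. The part of choroid plexus RNA in these differences was not tested.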

How the data were processed

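RNA of the dorsal hippocampus was measured on Rat Gene 1.0 ST arrays (Affymetrix), 1 for each of 23 rats (6 ST, 6 LT, 5 AC and 6 YC). Each deposited value is a probe set's signal intensity, which the authors computed with the Robust Multiarray Average algorithm (Partek, version not given in the sources used here), unlogged and rounded; they were used as deposited. Depth does not apply to arrays, and their number limits precision. By the methods, a value beyond 2 SD of its group was set to missing, but among 5 values none can lie more than 1.79 SD from the mean; blanks were left missing, and no member had one.

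Log2 signals of the 13339 probe sets that carry 1 gene symbol and reach a signal of 40 on 4 or more arrays were fitted with limma 3.58.1 in R 4.3.3, with 1 mean for each of 4 groups, with Benjamini-Hochberg adjustment over all of them (called: adjusted p under 0.05). The script was tested on simulated data. Correlations used 100000 permutations within groups. Groups came from the labels, and replicates are separate rats. Where a listed gene has several probe sets, the one with the highest mean signal was used. All 10 members were named, and from each pathway list up to 6 genes called in any of the 4 main comparisons. Members, lists, markers and rules were chosen with earlier results of these data known. Promoters come from RefSeq (GRCr8). Results were recomputed without each array, with the methods' analysis of variance and pairwise tests (pairwise p adjusted), and with other filters, probe sets and scalings, array weights, a variance trend, RNA integrity number, replicate number, the compared groups alone and choroid plexus signal. Leaving out AC replicate 5 with YC replicate 2 and the methods' own unadjusted thresholds (F and pairwise p of at most 0.05) were added after seeing the data. No batch was given in the labels.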

Additional observations from a re-analysis of the deposited data

Results flagged for a closer look

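The log2 signal of *Egr1* had 1 AC array far from the others. AC replicate 5 read 577, and the next lowest AC array 1382 and the highest 1672, so the gap took up 0.82 of the group's whole range on the log2 scale (Dixon's 95% critical value is 0.71 for 5 values). It was the only such array among the 40 combinations of 10 members and 4 groups, where chance alone gives about 2.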

How the results depend on the processing

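*Nr4a2* was called in AC vs YC under all 39 alternatives with adjusted p, and by the methods' unadjusted thresholds. The number of members called ran from 1 to 2 for AC vs YC and from 0 to 1 for ST vs AC when single arrays were left out. It was 2 for AC vs YC without AC replicate 1 (*Egr2* added) and without AC replicate 2 (*Fos* added), and 1 for ST vs AC without AC replicate 1 (*Nr4a2*); it was also 1 for ST vs AC (*Nr4a2*) by the methods' unadjusted thresholds, and 0 in every other alternative for ST vs AC and in all for LT vs AC and the average of both treatments vs AC. With single arrays left out, fold changes that turned sign in any alternative ran as follows: in AC vs YC, *Egr3* from -0.13 to 0.0017 and *Arc* from -0.41 to -0.070; in ST vs AC, *Egr1* from -0.039 to 0.34, *Nr4a1* from -0.037 to 0.39, *Egr3* from -0.016 to 0.12 and *Junb* from -0.031 to 0.088; in LT vs AC, *Egr1* from -0.096 to 0.29, *Nr4a1* from -0.10 to 0.33 and *Egr3* from -0.021 to 0.12; in ST and LT averaged vs AC, *Egr1* from -0.067 to 0.32, *Nr4a1* from -0.070 to 0.36, *Egr3* from -0.018 to 0.12 and *Nr4a3* from -0.0095 to 0.051. Without AC replicate 5 and YC replicate 2, AC vs YC was 2.85e-04 for *Egr3* and 0.013 for *Arc*; ST vs AC was -0.016 for *Egr3*, -0.039 for *Egr1*, -0.031 for *Junb* and -0.037 for *Nr4a1*; LT vs AC was -0.021 for *Egr3*, -0.096 for *Egr1* and -0.10 for *Nr4a1*; and ST and LT averaged vs AC was -0.018 for *Egr3*, -0.067 for *Egr1*, -0.0078 for *Nr4a3* and -0.070 for *Nr4a1*. *Nr4a1* in LT vs AC was -5.68e-04 with array weights, and *Nr4a3* in ST and LT averaged vs AC was -0.023 with the choroid plexus score as a covariate. The cause of these turns was not tested. *Egr2* was not tested at the higher signal minimum.

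Replicate numbers are shared between groups. Deviations of same-numbered rats from their group means correlated at -0.38 to 0.20 (33 pairs, 7 over 0.1). Those of differently numbered rats of different groups correlated at -0.42 to 0.56 (165 pairs, 37 over 0.1). Whether the numbers mark a pairing or an order of processing cannot be told from these values. With the replicate number as a block, 1 member was called in AC vs YC (*Nr4a2*, -0.45, adjusted p = 0.0016) and 0 in the other 3 comparisons; the block changed no call of a member.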
